A study of Mus musculus with 44 samples.

Results

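Distal extraembryonic endoderm, named exEndo 1, is the layer of visceral endoderm that covers the epiblast at E6.5, and part of its progeny is found in the gut tube at E9.5 as exGut. Its RNA at both stages was held by 12 of the 44 libraries of the study: 4 of exEndo 1 at E6.5 and 8 of exGut at E9.5, of which 4 were exMidgut and 4 were exHindgut. The libraries were taken by their titles. Every sample analysed here carried the genotype WT. Each came from a CD1/G4 morula with an EF1a-driven mCherry transgene that had been aggregated with a G4 embryonic stem cell colony marked by EGFP. Extraembryonic cells were therefore mCherry+ and embryonic cells were GFP+. mCherry+ cells could be female or male.

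The exEndo 1 samples were each drawn off a single embryo by glass capillary after a cold trypsin and pancreatin treatment, without a sort. For exMidgut and exHindgut, tissue of 4 embryos per sample was dissociated in trypsin-EDTA, enriched on beads for EPCAM, and sorted for cells positive for EPCAM and mCherry. Per the study's methods, both gut regions came from the posterior part of E9.5 embryos, so anterior gut was not sampled. Stage, part of the embryo, number of embryos, enzyme, sort and cell input therefore changed together between E6.5 and E9.5 and cannot be told apart. A lower level in a bulk sample can also mean fewer cells of a type or less RNA per cell, which cannot be told apart either.

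Visceral endoderm is an absorptive and secretory epithelium. It takes up maternal protein through large scavenger receptors and lysosomes, and it releases serum proteins and lipoproteins before the liver exists. At its anterior end it releases Nodal and Wnt antagonists that pattern the epiblast. During gastrulation definitive endoderm from the epiblast inserts between its cells, and the mixed sheet folds into a gut tube that is regionalised along its length by Cdx and Hox factors, retinoic acid, FGF and Wnt signals and that sends Hedgehog ligands to the surrounding mesoderm.

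Depth was taken as the most frequent ratio of coverage to FPKM over the genes of a library. It ran from 6.71 to 8.30 Gb of aligned sequence in exEndo 1 and from 3.53 to 12.04 Gb in exGut. TPM scales the transcripts of a gene, corrected for their length, to the same total in every library. The number of genes above 1 TPM ran from 12619 to 12911 in exEndo 1 and from 13222 to 13483 in exGut, with no overlap. Pearson correlations of log2(TPM + 1) ran from 0.968 to 0.988 between exEndo 1 libraries, from 0.921 to 0.931 between exMidgut libraries and from 0.942 to 0.947 between exHindgut libraries, against 0.772 to 0.809 between exEndo 1 and exGut libraries. mCherry was at 1764 to 5231 TPM in exEndo 1 and 5868 to 8273 TPM in exGut. The exEndo 1 libraries did not form an even group. Replicates 2 and 4 held EGFP at 13.7 and 15.9 TPM and the epiblast co-receptor gene Tdgf1 at 47.2 and 37.5 TPM, where replicates 1 and 3 held 1.09 and 0.0664 TPM of EGFP and 0.695 and 0.698 TPM of Tdgf1. Xist was at 231 and 123 TPM in replicates 1 and 3 and at 1.51 and 1.43 TPM in replicates 2 and 4. The part of these differences in the results was not tested. Without replicates 2 and 4, an alternative added after the values were seen, 3490 genes were called between the stages in place of 4266.

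Of 10 visceral endoderm markers, all 10 lay above 1 TPM in every exEndo 1 library, with a summed level of 8623 to 13727 TPM. Their sum was 5827 to 12069 TPM in exMidgut and 71.1 to 675 TPM in exHindgut. Afp, 1 of the 10, was higher in exMidgut than in exEndo 1 and weighs on these sums. By the calls described below, 7 of the 10 were lower and 1 higher in exMidgut than in exEndo 1 (median log2 difference of -2.225). In exHindgut all 10 were lower (median -6.00). Of all genes, 13.2% were called lower and 21.7% higher in exMidgut, and 12.2% lower in exHindgut. The 10 gut endoderm markers summed to 2319 to 2923 TPM in exEndo 1, 5618 to 6671 TPM in exMidgut and 2564 to 3479 TPM in exHindgut. Epcam, which was used in the sort and is no finding, was at 186 to 335 TPM in exEndo 1 and 479 to 1029.8 TPM in exGut. It is 1 of the 10 gut endoderm markers, so their sums hold a gene of the sort. Among markers of other cells, blood and endothelial lists reached at most 9.25 and 1.01 TPM in sum in exEndo 1 and 2.91 and 3.37 TPM in exGut. The mesoderm and mesenchyme list summed to 3.36 to 6.76 TPM in exEndo 1 and 15.9 to 33.2 TPM in exGut, and the surface ectoderm list to 1.42 to 4.53 TPM and 10.3 to 23.0 TPM. The neural list summed to 2.35 to 4.87 TPM in exEndo 1 and 4.98 to 30.9 TPM in exGut. The extraembryonic ectoderm list, which holds Cdx2, summed to 64.5 to 101 TPM and 166 to 360 TPM. The epiblast list, which holds Fgf8, summed to 60.3 to 316 TPM in exEndo 1, 0 to 5.30 TPM in exMidgut and 321 to 595 TPM in exHindgut. Their part in the results was not tested. Yolk sac endoderm is also positive for EPCAM and mCherry, so the sort does not tell its cells from exGut cells. Per the study's methods, extraembryonic tissues were removed at dissection. Carry-over of such cells was not tested.

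Genes were compared with limma on log2(TPM + 1), with Benjamini-Hochberg adjustment over all 12931 genes tested, and calls needed both an adjusted p below 0.05 and a log2 difference larger than 1 in either direction. All differences below are on this scale, which understates the change of genes with low TPM. From exEndo 1 to exGut, the mean of exMidgut and exHindgut, 2684 genes were called higher and 1582 lower, in all 33.0% of the genes tested (20.8% higher, 12.2% lower). For 4230 genes (32.7%, with 18.8% above it and 13.9% below it) none of the 8 exGut values lay within the exEndo 1 range. Calls that also left the range numbered 1859 higher and 1149 lower. The balance depended on the scaling: 62.9% of the calls were higher in TPM, 55.3% after median-ratio rescaling and 50.5% after quantile normalization. The median difference of all genes was 0.13 in TPM, -0.0011 after median-ratio rescaling and -0.04 after quantile normalization, and the median of the shifts gene by gene was -0.14 and -0.15. The exMidgut and exHindgut comparisons use the same exEndo 1 libraries. Against these libraries, exMidgut had 2804 genes called higher and 1711 lower (34.9% called, 21.7% higher and 13.2% lower), and exHindgut had 2497 higher and 1575 lower (31.5% called, 19.3% higher and 12.2% lower).

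**Figure D1:**
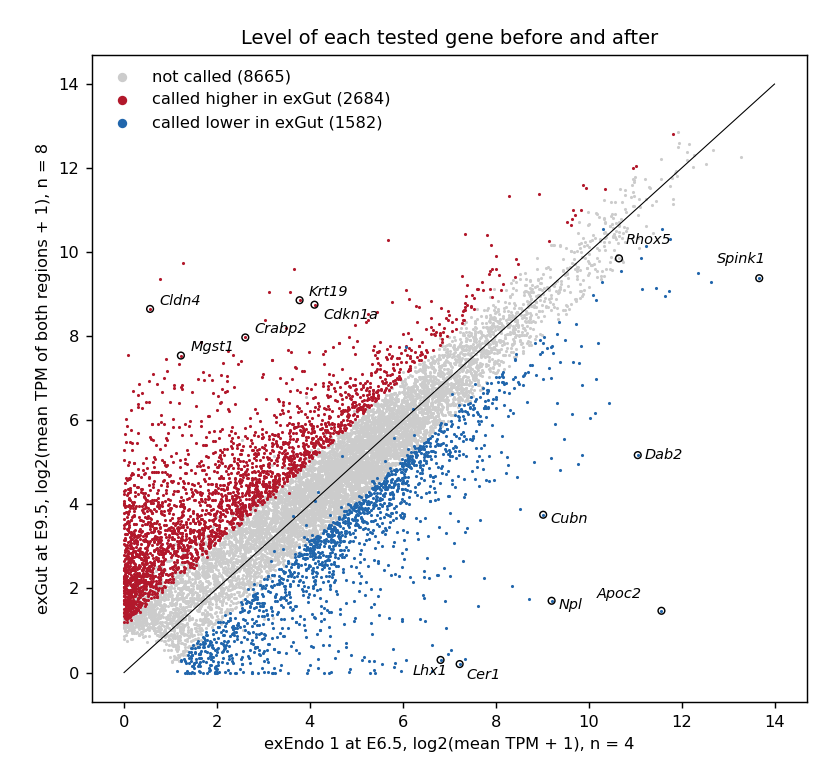
Level of each of the 12931 tested genes in exEndo 1 at E6.5 (x axis, log2 of mean TPM + 1, n = 4) and in exGut at E9.5 (y axis, log2 of the mean of both region means + 1, n = 8), with genes called higher in red (2684), called lower in blue (1582) and not called in grey; the line marks equal levels. Cldn4 and Mgst1 lie far above the line, and Apoc2, Npl, Cubn and Dab2 far below it.

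The 5 largest falls with separated groups included those of an apolipoprotein and of an uptake receptor. Apoc2, the lipoprotein cofactor of lipoprotein lipase (chr7:19671579-19677941, minus strand, mm10), was at 1531, 2679.5, 3936 and 3979 TPM in exEndo 1 replicates 1 to 4, at 1.97, 8.33, 2.95 and 0.908 TPM in exMidgut and listed at 0 in all 4 exHindgut libraries. Every exGut value was at most 8.33 TPM and the stages did not overlap (log2 difference of -10.50 ± 0.34 SE, adjusted p = 3.02e-12). Npl, an enzyme that breaks down sialic acid (chr1:153503015-153550045, minus strand), was at 425, 583, 708 and 636 TPM in exEndo 1, 0, 5.08, 3.29 and 2.45 TPM in exMidgut and 1.57, 1.01, 3.82 and 0.917 TPM in exHindgut, low in both regions (log2 difference of -7.67 ± 0.39 SE, adjusted p = 2.78e-10). Cubn, the cubilin receptor that binds intrinsic factor, albumin and apolipoprotein A-I (chr2:13276338-13491813, minus strand), was at 299, 463, 739 and 573 TPM in exEndo 1 and 8.58, 29.8, 39.6 and 22 TPM in exMidgut, and was listed at 0 in all 4 exHindgut libraries (log2 difference of -6.69 ± 0.32 SE, adjusted p = 1.38e-10). The trace of Cubn that was left stood in exMidgut. Fmr1nb was at 319 to 657 TPM in exEndo 1 and at most 12.2 TPM in exGut (log2 difference of -7.64 ± 0.43 SE, adjusted p = 9.72e-10). Pga5, a pepsinogen, was at 347, 83.2, 54.6 and 161 TPM in exEndo 1 and was listed at 0 in 7 of the 8 exGut libraries (log2 difference of -6.79 ± 0.44 SE, adjusted p = 3.70e-09).

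Of 16 endocytic and lysosomal genes, 11 fell, 2 rose and 3 were not called, against 12.2% and 20.8% of all genes tested, and their median log2 difference was -2.51. Amn, the amnionless subunit that anchors cubilin at the apical membrane, was at 615, 880.0, 1149.9 and 1062 TPM in exEndo 1, 21.4, 116, 85.4 and 46.7 TPM in exMidgut and 0.167, 1.94, 3.35 and 4.43 TPM in exHindgut. The groups did not overlap and exHindgut was the lowest (log2 difference of -6.11 ± 0.41 SE, adjusted p = 6.04e-09). Dab2, the clathrin adaptor of this receptor complex, was at 1776, 1955, 2641 and 2143 TPM in exEndo 1, 33.8, 81.3, 82.8 and 47 TPM in exMidgut and 2.65, 10.3, 11 and 11.7 TPM in exHindgut (log2 difference of -6.53 ± 0.30 SE, adjusted p = 1.09e-10). The partner receptor megalin, Lrp2, was low in both regions, with 39.7 to 81.5 TPM in exEndo 1 and 0.605 to 7.20 TPM in exGut (log2 difference of -3.70 ± 0.37 SE, adjusted p = 4.25e-07). Genes of lysosomal proteases fell as well. Ctsh was at 787 to 941 TPM in exEndo 1 and 5.31 to 63.4 TPM in exGut (log2 difference of -5.16 ± 0.23 SE, adjusted p = 8.36e-11). Lgmn, or legumain, was at 885 to 1228 and 36 to 108 TPM (log2 difference of -4.04 ± 0.22 SE, adjusted p = 4.97e-10). Ctsl, the member with the highest level, was at 3018 to 3694 and 273 to 952 TPM (log2 difference of -2.82 ± 0.12 SE, adjusted p = 3.50e-11). The lysosomal membrane genes did not move together. Lamp1 was at 423 to 578 TPM in exEndo 1 and 129.8 to 253 TPM in exGut (log2 difference of -1.42 ± 0.10 SE, adjusted p = 6.87e-09). Lamp2 was at 96.8 to 152 TPM in exEndo 1 and 125 to 288 TPM in exGut and was not called (log2 difference of 0.65 ± 0.13 SE, adjusted p = 5.96e-04). Grtp1 overlaps Lamp1, and the counting is not stated to use strand. The 2 members that rose were Gm2a and Glb1, with log2 differences of 1.03 and 1.05. Both calls were lost under median-ratio rescaling (0.90 and 0.91) and quantile normalization (0.65 and 0.97). The call of Gm2a was also lost without exEndo 1 replicate 4 (0.96), exMidgut replicate 1 (0.98) or exHindgut replicate 2 (0.99), and that of Glb1 without exEndo 1 replicate 1 (0.83), exMidgut replicate 3 (0.96) or exHindgut replicate 1 (0.99).

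**Figure D2:**
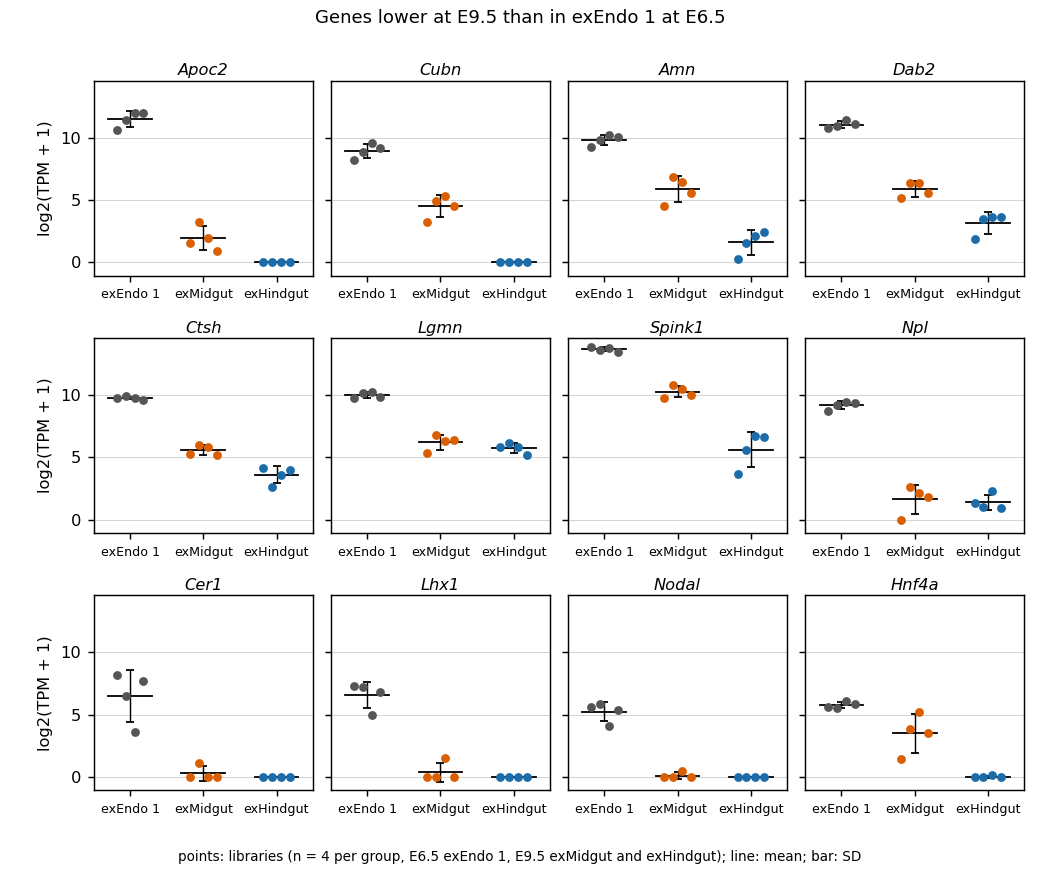
Levels of 12 genes that fell from E6.5 to E9.5, as log2(TPM + 1) on the y axis, in the 4 libraries each of exEndo 1, exMidgut and exHindgut (points), with the mean (line) and SD (bar). Apoc2, Cubn and Amn are far below exEndo 1 in both regions and lowest in exHindgut, Lgmn and Npl are alike in both regions, and exEndo 1 replicate 3, the third point, is the lowest for Cer1 and Lhx1.

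The serum proteins split by gut region. The part of any yolk sac endoderm cells, which share the markers of the sort, was not tested. Of 18 genes for secreted and transport proteins of visceral endoderm, 12 fell from exEndo 1 to exGut, 2 rose and 4 were not called. Of all genes, 12.2% were called lower and 20.8% higher. The median log2 difference of the 18 was -2.09. Against the shared exEndo 1 libraries, exMidgut had 7 members higher and 7 lower (median 0.61), and exHindgut had 2 higher and 15 lower (median -4.72). The shares of all genes were 21.7% higher and 13.2% lower in exMidgut, and 19.3% and 12.2% in exHindgut. Afp, alpha-fetoprotein, was at 1397, 2569, 2184 and 1868 TPM in exEndo 1, 4641, 7408, 8162 and 6142 TPM in exMidgut and 22.1, 109, 437 and 176 TPM in exHindgut. exMidgut lay above the whole exEndo 1 range and exHindgut below it. The mean over both regions was not called (log2 difference of -1.16 ± 0.50 SE, adjusted p = 0.0574), while each region was (log2 differences of 1.72 and -4.05). The mean was called after median-ratio rescaling (-1.31) and without exHindgut replicate 3 (-1.48). Rbp4, the plasma carrier of retinol, went the same way, with 707, 1319, 2028 and 1017 TPM in exEndo 1, 1285, 3012, 4991 and 2425 TPM in exMidgut and 85.1, 40.4, 31.5 and 41.6 TPM in exHindgut; here the ranges of exEndo 1 and exMidgut overlapped. The fall of Rbp4 over both regions was lost with 2 group means (adjusted p = 0.302). Apoa2, of high-density lipoprotein, was at 44.3, 121, 77.7 and 50.1 TPM in exEndo 1, 48, 222, 213 and 122 TPM in exMidgut and 0, 4.18, 0 and 5.57 TPM in exHindgut. The fall of its mean (log2 difference of -1.95 ± 0.53 SE, adjusted p = 0.00505) was lost with 2 group means (adjusted p = 0.267) and with exEndo 1 replicates 1 and 3 alone (adjusted p = 0.0546), and exMidgut was not called (0.92). The lipoprotein genes Apoa1, Apob and Apoe were lower in both regions. Apoa1, the main protein of high-density lipoprotein, was at 3503, 6181, 5670.3 and 5428 TPM in exEndo 1, 440.1, 1579.7, 2409.9 and 1332 TPM in exMidgut and 0, 2.69, 7.22 and 7.88 TPM in exHindgut (log2 difference of -6.17 ± 0.49 SE, adjusted p = 4.00e-08). Apob, the scaffold of larger lipoproteins, was at 607, 992, 892 and 715 TPM, 68.3, 181, 171 and 125 TPM and 3.05, 3.90, 5.65 and 6.04 TPM (log2 difference of -4.89 ± 0.24 SE, adjusted p = 1.60e-10). Apoe, the member with the highest level at E6.5, was at 4376 to 7641 TPM in exEndo 1, 673 to 1757 TPM in exMidgut and 21.4 to 36.8 TPM in exHindgut (log2 difference of -5.12 ± 0.21 SE, adjusted p = 3.19e-11). In Apoa1, Apob and Apoe alike the order was exEndo 1, exMidgut, exHindgut, with no overlap between groups.

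A pair of the 18 went up. Vtn, vitronectin, was at 1.04, 0.310, 0.645 and 1.53 TPM in exEndo 1, 261, 264, 413 and 394 TPM in exMidgut and 19.3, 11.1, 31.7 and 14.3 TPM in exHindgut, with no overlap between groups (log2 difference of 5.42 ± 0.26 SE, adjusted p = 1.77e-10). Serpina1b, an alpha-1-antitrypsin gene, was at 0.0395 to 0.507 TPM in exEndo 1, 189.7, 189.8, 284 and 246 TPM in exMidgut and 4.44, 5.05, 8.80 and 1.11 TPM in exHindgut (log2 difference of 4.78 ± 0.33 SE, adjusted p = 7.62e-09). Its near-identical neighbour Serpina1d overlaps it in the annotation used, so the split of reads between them is uncertain. Alb, albumin, was at most 0.220 TPM in exEndo 1 and 1.75, 2.56, 4.38 and 1.90 TPM in exMidgut, and was listed at 0 in 3 of the 4 exHindgut libraries (log2 difference of 0.89 ± 0.29 SE, adjusted p = 0.0154).

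The promoters of these genes are shown because the same letters stood in promoters of members that fell and of a member that rose. RefSeq starts within 1000 bases of the deposited gene start gave 250 bases of upstream sequence (GRCm38.p6) for 9251 of the tested genes and for 14 of the 18. The letters GTTAAT on either strand were in 6 of these 14, namely Afp, Alb, Apoc2, Fga, Fgb and Vtn, and in 3.92% of all 9251 (363 promoters). AGATAA and TTTATGG, the other strings searched on both strands, were in 0 of the 14, and in 5.45% and 1.37% of all. The 14 also held few CG pairs, a median of 4, with a range of 1 to 9, against a median of 16 for all. In the 4 promoters printed here, written 5′ to 3′ toward the gene, the capitals mark GTTAAT or its reverse complement ATTAAC.
Afp (chr5:90490464-90490713, plus strand): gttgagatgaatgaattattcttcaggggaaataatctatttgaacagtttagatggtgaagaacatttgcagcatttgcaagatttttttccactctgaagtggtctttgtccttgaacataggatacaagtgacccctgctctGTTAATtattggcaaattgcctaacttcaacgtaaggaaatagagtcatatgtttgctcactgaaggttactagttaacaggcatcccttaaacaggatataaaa
Apoc2 (chr7:19677942-19678191, minus strand): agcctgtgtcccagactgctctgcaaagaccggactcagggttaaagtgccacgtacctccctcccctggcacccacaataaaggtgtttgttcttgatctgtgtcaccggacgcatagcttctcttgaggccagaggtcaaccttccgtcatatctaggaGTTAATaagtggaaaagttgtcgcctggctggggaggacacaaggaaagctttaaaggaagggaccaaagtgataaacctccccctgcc
Fgb (chr3:83049864-83050113, minus strand): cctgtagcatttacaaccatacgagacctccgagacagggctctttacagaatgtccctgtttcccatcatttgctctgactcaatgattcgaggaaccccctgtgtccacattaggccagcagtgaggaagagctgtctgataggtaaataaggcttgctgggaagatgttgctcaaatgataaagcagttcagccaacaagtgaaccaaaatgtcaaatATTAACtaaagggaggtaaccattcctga
Vtn (chr11:78498870-78499119, plus strand): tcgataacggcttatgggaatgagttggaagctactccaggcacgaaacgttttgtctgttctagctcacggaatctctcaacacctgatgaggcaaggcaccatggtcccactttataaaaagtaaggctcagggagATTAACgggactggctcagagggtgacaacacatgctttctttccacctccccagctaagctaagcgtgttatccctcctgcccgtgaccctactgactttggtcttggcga
A match is a description of these letters and not a shown site. The same letters were in promoters of genes that moved either way: of all 363 that held them, 66 were called higher and 55 lower, and the share called lower was 15.2% against 11.7% of all genes with a promoter. Of the printed promoters, that of Apoc2 belongs to the gene with the largest fall and that of Vtn to one with a rise of 5.42.

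Most anterior visceral endoderm genes were near 0 in exGut at E9.5. Of 11, 9 fell, none rose by limma and 2 were not called, against 12.2% of all genes called lower. Their median log2 difference was -3.67. The exGut libraries came from the posterior part of the embryo, while exEndo 1 was not split into anterior and posterior parts. Anterior gut was not sampled, and the part of this dissection in the falls was not tested. Cer1, a secreted antagonist of Nodal and BMP, was at 283, 89.8, 11 and 209 TPM in exEndo 1 and was listed at 0 in 7 of the 8 exGut libraries, with 1.20 TPM in exMidgut replicate 2 (log2 difference of -6.35 ± 0.61 SE, adjusted p = 3.17e-07). Lhx1, a LIM-homeodomain factor, was at 153, 149.9, 31.1 and 111 TPM in exEndo 1 and at most 1.83 TPM in exGut (log2 difference of -6.39 ± 0.41 SE, adjusted p = 4.04e-09). Otx2, a head organiser factor, was at 179, 114, 4.18 and 91.9 TPM and at most 0.245 TPM (log2 difference of -5.77 ± 0.66 SE, adjusted p = 2.20e-06). exEndo 1 replicate 3 was the lowest of its group for all 3 of these genes, and for Otx2 it held 4.18 TPM where the next library held 91.9 TPM. The members not called were Dkk1, the Wnt antagonist, at 68.4, 42.1, 37.9 and 70.1 TPM in exEndo 1, 50.6, 6.28, 18 and 15.8 TPM in exMidgut and 109.9, 89.6, 36.9 and 66.3 TPM in exHindgut, and Hhex. Hhex, a homeobox factor, was at 6.88 to 43.7 TPM in exEndo 1 and 4.52 to 22.7 TPM in exGut. Dkk1 was higher in exHindgut than in exMidgut (log2 difference of 1.93 ± 0.46 SE, adjusted p = 0.00638).

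Among the Nodal signalling genes, the ligand and its co-receptor fell. Nodal itself was at 48.8, 57.5, 16.5 and 40.1 TPM in exEndo 1 and was listed at 0 in 7 of the 8 exGut libraries (log2 difference of -5.19 ± 0.32 SE, adjusted p = 2.20e-09). Its co-receptor Cfc1 was at 82.4 to 93.2 TPM in exEndo 1 and 0 to 8.14 TPM in exGut (log2 difference of -4.45 ± 0.33 SE, adjusted p = 1.97e-08). The transcription factor Foxh1, which works with SMAD2, was at 39.1 to 63.6 TPM in exEndo 1. It was listed at 0 in 7 of the 8 exGut libraries and at 3.83 TPM in exHindgut replicate 2 (log2 difference of -5.48 ± 0.39 SE, adjusted p = 1.08e-08). Acvr2b, a receptor, was at 18.5 to 25.9 TPM in exEndo 1 and 47.3 to 68.7 TPM in exGut (log2 difference of 1.33 ± 0.15 SE, adjusted p = 1.71e-06). Smad3, a transducer, was at 2.25 to 3.81 and 12.3 to 33.7 TPM (log2 difference of 2.38 ± 0.23 SE, adjusted p = 3.05e-07). Over the 12 members tested, 3 rose, 5 fell and 4 were not called, against 20.8% of all genes called higher and 12.2% lower. The share that rose was near that of all genes.

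Of 17 endoderm transcription factors, 9 fell, 2 rose and 6 were not called, with a median of -1.31. Of all genes, 12.2% were called lower and 20.8% higher. Eomes, the T-box factor of early endoderm and epiblast, was at 84.8, 69.9, 35.4 and 55.2 TPM in exEndo 1 and at most 0.149 TPM in exGut (log2 difference of -5.85 ± 0.27 SE, adjusted p = 1.16e-10). Gata4, a driver of visceral endoderm, was at 79.8, 71.1, 103 and 101 TPM in exEndo 1, 6.55, 16.6, 48.8 and 22.1 TPM in exMidgut and 0, 0, 0.469 and 0.257 TPM in exHindgut (log2 difference of -4.21 ± 0.36 SE, adjusted p = 9.26e-08). Hnf4a, which directs many serum protein genes, had the same order with 49, 46, 67.9 and 57, 1.71, 13.51, 35.3 and 10.6 and 0, 0, 0.116 and 0 TPM (log2 difference of -4.02 ± 0.47 SE, adjusted p = 2.39e-06). Sox17 had the opposite order between the regions: 36, 90.6, 80.0 and 101 TPM in exEndo 1, 0.532, 0.874, 4.78 and 0 TPM in exMidgut and 39.7, 22.6, 12.2 and 14.2 TPM in exHindgut (log2 difference of 3.38 ± 0.49 SE, adjusted p = 1.44e-04 for exHindgut against exMidgut). Foxa2, a pioneer factor of all gut endoderm, was at 51.3, 52.3, 34.4 and 37.6 TPM in exEndo 1, 75.4, 53.3, 74.7 and 49.3 TPM in exMidgut and 31.1, 53.6, 62 and 51 TPM in exHindgut, and its groups overlapped (log2 difference of 0.33 ± 0.19 SE, adjusted p = 0.159). Its paralogue Foxa1 rose in every library, from 18.3, 13.9, 7.57 and 9.93 TPM to 122, 103, 119 and 116 TPM in exMidgut and 21, 27.9, 38.7 and 33.5 TPM in exHindgut (log2 difference of 2.22 ± 0.21 SE, adjusted p = 2.58e-07).

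Some genes of epithelial junctions and keratins rose, and most were not called. Of 16 junction and keratin genes, 6 rose, none fell by limma and 10 were not called, with a median of 0.72. Of all genes, 20.8% were called higher. Against the shared exEndo 1 libraries, exMidgut had 10 higher and 1 lower (median 1.34), and exHindgut had 5 higher and none lower by limma (median 0.25). The shares of all genes were 21.7% higher and 13.2% lower in exMidgut, and 19.3% and 12.2% in exHindgut. Cldn4, a tight junction claudin (chr5:134945119-134946934, minus strand), had the largest rise of all genes tested: 0.935, 0, 0.953 and 0.00982 TPM in exEndo 1, 571, 520.1, 598 and 532 TPM in exMidgut and 219, 226, 277 and 262 TPM in exHindgut (log2 difference of 8.05 ± 0.19 SE, adjusted p = 1.01e-13). Cldn3 was at 0.444, 0.914, 1.06 and 0.800 TPM in exEndo 1, 216, 92.1, 256 and 235 TPM in exMidgut and 62.6, 32.3, 57.8 and 70.6 TPM in exHindgut (log2 difference of 5.82 ± 0.27 SE, adjusted p = 1.02e-10). Both claudins were close to absent at E6.5 and abundant in all 8 libraries at E9.5. Krt19, a keratin of simple and ductal epithelia, was at 4.70 to 20.3 TPM in exEndo 1, 518 to 711 TPM in exMidgut and 229 to 336 TPM in exHindgut (log2 difference of 5.11 ± 0.25 SE, adjusted p = 1.60e-10). Krt7 was at 1.37 to 6.54, 97.1 to 162 and 22.4 to 58.3 TPM in the same order (log2 difference of 4.14 ± 0.30 SE, adjusted p = 1.63e-08). Krt8, at 652 to 1092 TPM in exEndo 1, 1302 to 1951 TPM in exMidgut and 521 to 984 TPM in exHindgut, was not called (log2 difference of 0.30 ± 0.17 SE, adjusted p = 0.139). The claudin gene Cldn6 was at 424 to 785 TPM in exEndo 1 and 736 to 1517 TPM in exGut and was not called (log2 difference of 0.73 ± 0.14 SE, adjusted p = 3.11e-04). The adherens junction gene Cdh1 was not called either (log2 difference of 0.69 ± 0.14 SE, adjusted p = 5.82e-04). The scaffold gene Tjp1 was at 22.5 to 24 TPM in exEndo 1 and 13.8 to 30.5 TPM in exGut (log2 difference of -0.13 ± 0.18 SE, adjusted p = 0.554).

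Beside Cldn4, the largest rises with separated groups were those of Mgst1, Krtap17-1, 2610528A11Rik and Uchl1. Mgst1, a microsomal glutathione transferase, was at 1.33, 1.18, 0.190 and 2.63 TPM in exEndo 1, 223, 176, 175 and 160.0 TPM in exMidgut and 221, 131, 141 and 255 TPM in exHindgut, with overlap between the regions (log2 difference of 6.39 ± 0.25 SE, adjusted p = 2.03e-11). Uchl1, a deubiquitinase, was at 0.442 to 1.91 TPM in exEndo 1 and 102 to 197 TPM in exGut (log2 difference of 6.17 ± 0.21 SE, adjusted p = 3.92e-12). Krtap17-1 was at 0 to 0.638 and 49.6 to 131 TPM (log2 difference of 6.27 ± 0.21 SE, adjusted p = 3.92e-12). 2610528A11Rik was at 0 to 0.255 and 41.6 to 268 TPM (log2 difference of 6.26 ± 0.28 SE, adjusted p = 7.37e-11).

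**Figure D3:**
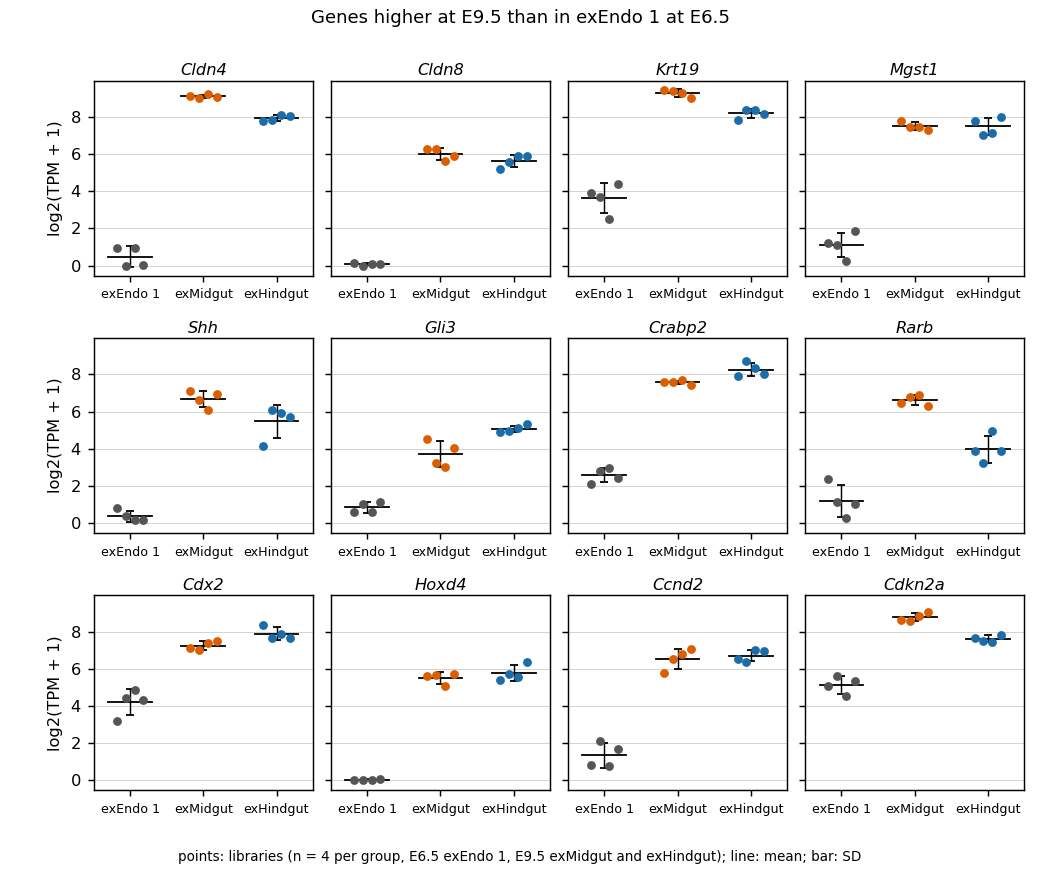
Levels of 12 genes that rose from E6.5 to E9.5, as log2(TPM + 1) on the y axis, in the 4 libraries each of exEndo 1, exMidgut and exHindgut (points), with the mean (line) and SD (bar). All 8 exGut values lie above all exEndo 1 values for each gene; Rarb and Cdkn2a are higher in exMidgut, and Gli3 in exHindgut.

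The Hedgehog ligand genes Shh and Ihh and the transducer genes Smo and Gli3 rose, while calls of the targets Gli1 and Ptch1 depended on the setting. Shh, the main ligand of gut endoderm, was at 0.717, 0.273, 0.104 and 0.119 TPM in exEndo 1, 136, 97.6, 66.8 and 120.4 TPM in exMidgut and 16.7, 66.9, 60.2 and 51.3 TPM in exHindgut (log2 difference of 5.72 ± 0.32 SE, adjusted p = 8.58e-10). Ihh, the ligand already made by visceral endoderm, was at 3.77, 6.87, 10.6 and 6.22 TPM, 29.5, 25.4, 51.3 and 52.1 TPM and 13.1, 19.2, 20.6 and 4.19 TPM, and exHindgut overlapped exEndo 1 (log2 difference of 1.60 ± 0.36 SE, adjusted p = 0.00143). The transducer Smo rose (log2 difference of 1.32 ± 0.17 SE, adjusted p = 8.55e-06), with 10.9 to 15.3 TPM in exEndo 1 and 25.9 to 41.1 TPM in exGut. The transcription factor Gli3 was at 0.496 to 1.20 TPM and 7.22 to 38.7 TPM (log2 difference of 3.55 ± 0.29 SE, adjusted p = 4.39e-08). The target Gli1 reached 4.58, 4.08, 5.28 and 4.38 TPM in exHindgut with at most 1.77 TPM in exMidgut (log2 difference of 1.40 ± 0.31 SE, adjusted p = 0.00112), a call lost in FPKM (0.99). Ptch1, the receptor and target, was at 11.8 to 17.6 TPM and 14.9 to 49.2 TPM and was not called (log2 difference of 0.97 ± 0.26 SE, adjusted p = 0.00498). A call was made without exEndo 1 replicate 1 (log2 difference of 1.05), exMidgut replicate 2 (1.08) or 3 (1.07), or exHindgut replicate 1 (1.01) or 4 (1.01). Over the 11 genes tested of 15, 8 rose and none fell by limma, against 20.8% of all genes called higher. Of the 15, 5 lay above 1 TPM in every exEndo 1 library, 8 in every exMidgut and 11 in every exHindgut library. The other genes tested passed the filter only with exGut libraries, so this count is no separate support.

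Axial position genes came on. All 36 Hox genes tested of 39 were called higher, against 20.8% of all genes, with log2 differences from 1.35 to 5.62 and a median of 3.43. All 36 were tested because they passed 1 TPM in at least 4 libraries, which these genes reach at E9.5, so the count is no separate support for the rise. Against the shared exEndo 1 libraries, 24 were called higher in exMidgut (median 2.29) and 36 in exHindgut (median 4.575), beside 21.7% and 19.3% of all genes. All 8 exGut values lay above the exEndo 1 range for 22 of the 36 (18.8% of all genes). Hoxd4 had the largest rise: it was at most 0.0457 TPM in exEndo 1, and at 48.5, 50.4, 32.3 and 51.4 TPM in exMidgut and 40.8, 52.1, 46.6 and 82 TPM in exHindgut (log2 difference of 5.62 ± 0.23 SE, adjusted p = 2.21e-11). Hoxa10 had the highest mean of the list in exHindgut, with 0.842 to 7.98 TPM in exEndo 1, 23 to 43.7 TPM in exMidgut and 196 to 285 TPM in exHindgut (log2 difference of 4.55 ± 0.34 SE, adjusted p = 1.68e-08). Neighbouring and antisense transcripts overlap several Hox genes, Hoxd4, Hoxa7 and Hoxa5 among them, and without strand their reads cannot be told apart. Cdx2, the caudal factor of intestinal identity (chr5:147300805-147307270, minus strand), was at 8.22, 21, 28.4 and 18.9 TPM in exEndo 1, 137, 127, 167 and 179.9 TPM in exMidgut and 334, 205, 231 and 205 TPM in exHindgut (log2 difference of 3.36 ± 0.24 SE, adjusted p = 1.04e-08). Of 13 regional gut factors tested of 16, 11 rose and none fell by limma. Of the 16, 3 lay above 1 TPM in every exEndo 1 library, 9 in every exMidgut and 10 in every exHindgut library, so most passed the filter through exGut and this count is no separate support either. Sox9 was at 0.585 to 1.37 TPM in exEndo 1 and 17.8 to 28.9 TPM in exGut (log2 difference of 3.72 ± 0.21 SE, adjusted p = 1.01e-09). Isl1 was at 0.127 to 3.78 and 5.06 to 205 TPM (log2 difference of 4.94 ± 0.55 SE, adjusted p = 1.59e-06). Sox2, which overlaps the transcript Sox2ot, was at 0.0280 to 0.874 and 6.88 to 26.7 TPM (log2 difference of 3.42 ± 0.32 SE, adjusted p = 2.46e-07).

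Retinoic acid genes changed on both sides of the pathway: 10 of 15 rose, 4 fell and 1 was not called, with a median of 1.78. Of all genes, 20.8% were called higher and 12.2% lower. Of the 16 listed, 6 lay above 1 TPM in every exEndo 1 library. The other genes tested passed the filter only with exGut libraries, so the count of rises is no separate support. The receptor Rarb, itself a well-known retinoic acid target, was at 4.14, 1.17, 0.179 and 1.01 TPM in exEndo 1, 87.4, 108, 117 and 77.4 TPM in exMidgut and 13.4, 8.23, 29.9 and 13.9 TPM in exHindgut (log2 difference of 4.11 ± 0.35 SE, adjusted p = 9.13e-08). Crabp2, which delivers retinoic acid to nuclear receptors, was at 3.32, 5.85, 6.88 and 4.37 TPM, 190.0, 193, 204 and 173 TPM and 243, 415, 326 and 256 TPM (log2 difference of 5.34 ± 0.17 SE, adjusted p = 3.02e-12). Dhrs3, which turns retinal back to retinol, was at 0.775 to 4.35 TPM in exEndo 1 and 10.6 to 86.7 TPM in exGut (log2 difference of 3.69 ± 0.33 SE, adjusted p = 1.51e-07). Cyp26a1, the enzyme that breaks retinoic acid down, was at 1384, 1080.1, 456 and 809 TPM in exEndo 1, 0.0634, 0, 1.03 and 1.46 TPM in exMidgut and 231, 218, 265 and 196 TPM in exHindgut. It was close to absent in exMidgut and lower than at E6.5 in exHindgut, and both regions fell (log2 differences of -9.15 and -1.93). Rdh10, which makes retinal, was at 48.6, 59.5, 85.4 and 80.3 TPM in exEndo 1, 28.5, 61, 103 and 54.3 TPM in exMidgut and 2.18, 8.51, 3.02 and 5.92 TPM in exHindgut, overlapping between exEndo 1 and exMidgut and lower in exHindgut.

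Of 10 CDK inhibitor and D cyclin genes, 7 rose and none fell by limma, against 20.8% of all genes called higher. Their median was 2.69, and after median-ratio or quantile rescaling 1 was called lower. Ccnd2, the member with the largest rise, was at 0.773, 3.42, 0.680 and 2.18 TPM in exEndo 1, 54.6, 90.4, 109 and 132 TPM in exMidgut and 91.1, 83.1, 130.1 and 123 TPM in exHindgut (log2 difference of 5.29 ± 0.28 SE, adjusted p = 4.28e-10). Ccnd1 was at 2.88, 13.6, 2.40 and 13.2 TPM, 117, 69.9, 58.3 and 125 TPM and 304, 222, 220.4 and 256 TPM (log2 difference of 4.36 ± 0.36 SE, adjusted p = 5.56e-08), and within exEndo 1 it was higher in replicates 2 and 4. Cdkn1a, the p21 inhibitor, was at 15.9, 17.9, 12.8 and 17.9 TPM, 238, 225, 378 and 279 TPM and 586, 701, 489.6 and 541 TPM (log2 difference of 4.55 ± 0.15 SE, adjusted p = 3.02e-12). Cdkn2a, which encodes p16 and p19ARF, was at 32.8, 48.7, 22.1 and 39.4 TPM, 405, 381, 463 and 547 TPM and 205, 183, 171 and 229 TPM (log2 difference of 3.07 ± 0.17 SE, adjusted p = 7.08e-10). Cyclins and inhibitors of the list rose in the same libraries. Of 20 mitosis and S phase genes, 5 fell, 1 rose and 14 were not called, with a median of -0.38. Of all genes, 12.2% were called lower and 20.8% higher. By region, 9 were lower and 1 higher in exMidgut (median -0.67), and 1 was lower and 2 higher in exHindgut (median 0.05). Of all genes, 13.2% were called lower and 21.7% higher in exMidgut, and 12.2% and 19.3% in exHindgut. Top2a, the DNA topoisomerase of dividing cells, was at 317, 242, 239 and 273 TPM in exEndo 1, 140.3, 61.6, 35.5 and 86.2 TPM in exMidgut and 84.4, 163, 163 and 105 TPM in exHindgut, with all exGut values below exEndo 1 (log2 difference of -1.48 ± 0.27 SE, adjusted p = 2.32e-04). Mcm6, a replicative helicase subunit, was at 61.8 to 93 TPM in exEndo 1 and 135 to 198 TPM in exGut (log2 difference of 1.14 ± 0.14 SE, adjusted p = 3.14e-06), a call lost under median-ratio rescaling (0.997).

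Trp53 itself rose from 51.9, 70.7, 65.4 and 55.4 TPM in exEndo 1 to 184, 136, 141 and 171 TPM in exMidgut and 226, 230.0, 259 and 209 TPM in exHindgut (log2 difference of 1.64 ± 0.12 SE, adjusted p = 1.48e-08). Of 25 p53 target genes 12 rose and none fell by limma, against 20.8% of all genes called higher, with a median of 0.86. The pro-apoptotic Bbc3 was at 1.10 to 2.699 TPM in exEndo 1 and 4.76 to 17.2 TPM in exGut (log2 difference of 2.08 ± 0.32 SE, adjusted p = 5.09e-05). The kinase gene Plk2, with the largest rise of the list, was at 1.42 to 3.37 and 86 to 169 TPM (log2 difference of 5.25 ± 0.21 SE, adjusted p = 2.15e-11). Mdm2, the ligase that degrades p53, was at 37.4 to 51.1 TPM in exEndo 1 and 32.6 to 61 TPM in exGut and was not called (log2 difference of 0.03 ± 0.17 SE, adjusted p = 0.879). Immediate early genes, which respond to handling, summed to 441 to 824 TPM in exEndo 1, 732 to 1263 TPM in exMidgut and 1474 to 2278 TPM in exHindgut, with 5 of 13 risen and 1 fallen. Their part in the p53 and cell cycle results was not tested. Outside the target list, 6 of 11 Bcl2 family genes rose and none fell by limma, and after median-ratio rescaling 1 was called lower.

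Rhox5, an X-linked homeobox gene of extraembryonic tissue, was at 1603, 1626, 1799.6 and 1403 TPM in exEndo 1, 891, 1079.6, 1261 and 895 TPM in exMidgut and 814, 863, 740.1 and 839 TPM in exHindgut. All exGut values lay below the exEndo 1 range, and the difference was under the size needed for a call (log2 difference of -0.81 ± 0.10 SE, adjusted p = 4.44e-06). Of 21 germline genes tested, 5 rose, 3 fell and 13 were not called, with a median of 0.00, shares near the 20.8% and 12.2% of all genes called higher and lower. Trap1a was at 242 to 322 TPM and 484 to 633 TPM (log2 difference of 1.01 ± 0.09 SE, adjusted p = 2.36e-07). This rise was at the edge of a call, which was lost under median-ratio rescaling (0.86) and without exEndo 1 replicate 3 (0.979) or 4 (0.949), exMidgut replicate 2 (0.976) or exHindgut replicate 1 (0.999) or 4 (0.985). Among those that fell, the meiosis gene Sycp3 was at 15.7 to 20.01 TPM in exEndo 1 and 0 to 3.48 TPM in exGut, and the germ cell helicase gene Ddx4 at 7.79 to 21.5 and 0.154 to 3.17 TPM. Xlr3a was at 415 to 592 TPM in exEndo 1 and 289 to 409 TPM in exGut (log2 difference of -0.61 ± 0.10 SE, adjusted p = 7.59e-05). Housekeeping lists moved little. Of 23 ribosomal protein genes 2 rose and none fell by limma (median 0.31), with neither called after median-ratio or quantile rescaling, and of 23 oxidative phosphorylation genes 1 fell and none rose by limma (median 0.03).

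The regions differed from each other in 691 genes called higher and 1030 lower in exHindgut than in exMidgut, 13.3% of the genes tested (5.34% higher, 7.97% lower). Their values did not overlap for 2668 genes (20.6%, with 9.91% higher and 10.7% lower in exHindgut). The log2 differences of single genes that follow are exHindgut minus exMidgut. Fgf8, a growth factor of the tail bud and caudal endoderm, was at 71, 99.8, 11.5 and 80.6 TPM in exEndo 1, 0, 0.586, 0 and 0 TPM in exMidgut and 591, 431, 376 and 321 TPM in exHindgut. It was thus close to absent in exMidgut, and higher in exHindgut than in any exEndo 1 library (log2 difference of 8.55 ± 0.48 SE, adjusted p = 1.09e-08). Lmo2, a LIM-domain adaptor, was listed at 0 in all 4 exMidgut libraries and at 277, 225, 131 and 176 TPM in exHindgut, so no fold is given. T, the brachyury factor of primitive streak and tail bud, was at 1.34, 4.20, 2.59 and 2.97 TPM in exEndo 1, 0, 5.84, 0 and 1.42 TPM in exMidgut and 286, 163, 141 and 195 TPM in exHindgut (log2 difference of 6.56 ± 0.50 SE, adjusted p = 2.37e-07). Wnt5b was at 0 to 4.96 TPM in exMidgut and 177 to 282 TPM in exHindgut (log2 difference of 6.23 ± 0.44 SE, adjusted p = 8.24e-08). Hoxc10, which overlaps Hoxc5 in the annotation, was at most 0.787 TPM in exMidgut and at 88.4, 93.2, 103 and 62.7 TPM in exHindgut (log2 difference of 6.13 ± 0.31 SE, adjusted p = 2.35e-09). Of the 36 Hox genes, 29 were higher in exHindgut and none lower by limma, with a median of 2.27, and Hoxd4 was alike in both regions (log2 difference of 0.25 ± 0.26 SE, adjusted p = 0.553).

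exMidgut had its own set. Nepn, nephrocan, a midgut marker gene, was at 1.66, 2.25, 0.882 and 0.905 TPM in exEndo 1, 1456, 1037, 2037 and 2361 TPM in exMidgut and 0, 0, 3.38 and 6.81 TPM in exHindgut (log2 difference of -9.41 ± 0.54 SE, adjusted p = 1.20e-08). Tff3, a trefoil peptide of mucous epithelium, was at 0, 0.620, 1.83 and 0.363 TPM, 541, 1079.7, 2501 and 1112 TPM and 2.93, 0, 0 and 5.09 TPM (log2 difference of -9.00 ± 0.57 SE, adjusted p = 2.81e-08). Sycn, syncollin, a protein of pancreatic granules, was at 349, 200.3, 567 and 372 TPM in exMidgut and listed at 0 in all 4 exHindgut libraries. Onecut1, a factor of liver, bile duct and pancreas, was at 9.71, 16.7, 29.3 and 19.3 TPM in exMidgut and listed at 0 in all 4 exHindgut libraries. The highest exEndo 1 value among these 4 genes was 2.25 TPM. All 18 secreted and transport genes were lower in exHindgut than in exMidgut, with a median log2 difference of -4.41, against 7.97% of all genes called lower, and of the 16 endocytic and lysosomal genes 9 were lower and none higher by limma.

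**Figure D4:**
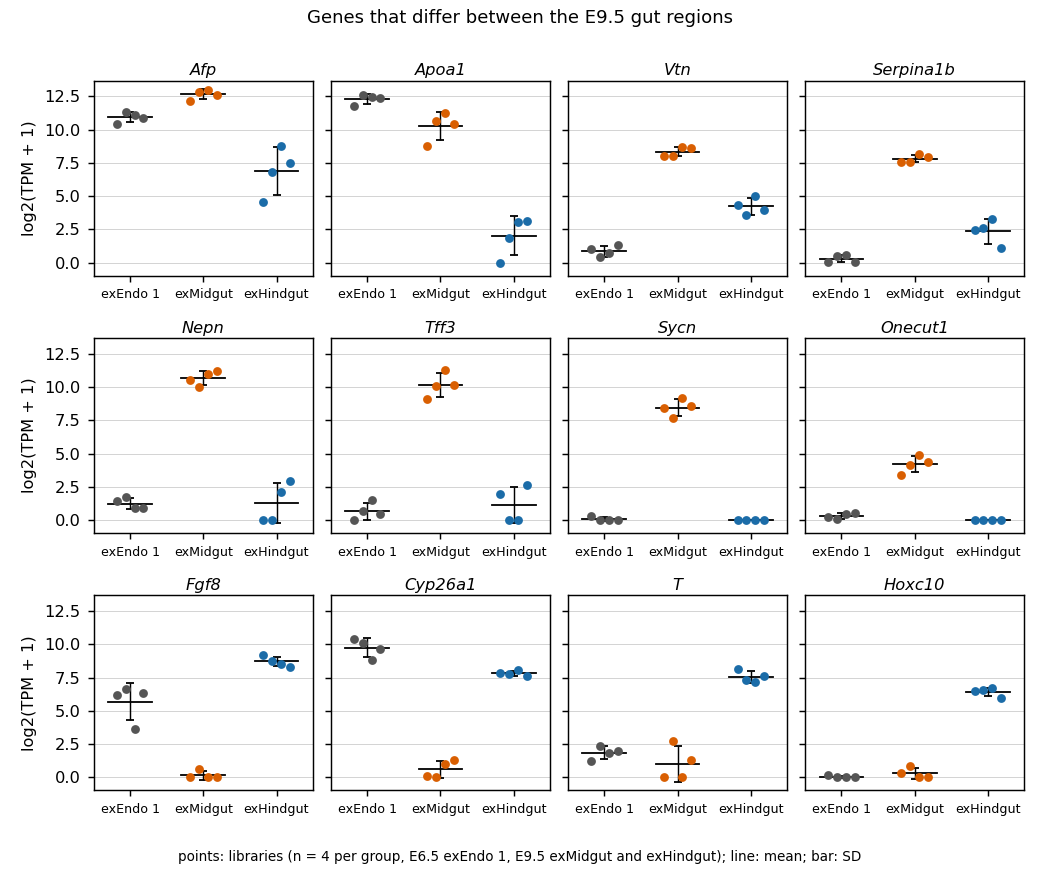
Levels of 12 genes that differ between the E9.5 gut regions, as log2(TPM + 1) on the y axis, in the 4 libraries each of exEndo 1, exMidgut and exHindgut (points), with the mean (line) and SD (bar). Afp is higher in exMidgut and lower in exHindgut than in exEndo 1, Nepn, Tff3, Sycn and Onecut1 stand high in exMidgut, and Fgf8, T and Hoxc10 in exHindgut.

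Seen gene by gene, 1829 genes were called higher and 1036 lower in both regions against exEndo 1. The regions went opposite ways for 32 genes called higher in exMidgut and lower in exHindgut and for 15 called the other way. Calls in exMidgut with none in exHindgut numbered 943 higher and 660 lower, and calls in exHindgut with none in exMidgut numbered 653 higher and 507 lower. Whether those changes differ between the regions is given by the direct comparison of the regions above.

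How far the change was shared with the neighbouring lineages was asked with a fit of 32 libraries and 14340 genes. It tested the difference between the change from exEndo 1 to exGut and the change from proximal extraembryonic endoderm (exEndo 2, E6.5) to yolk sac endoderm (YsEndo, E9.5), and likewise the change from epiblast (Epi, E6.5) to embryonic gut (emGut, E9.5). Both differences use the same exEndo 1 and exGut libraries. The emGut cells were sorted as positive for EPCAM and GFP with low mCherry signal. Per the study's methods, such cells took up remnants of extraembryonic cells and may hold some of their transcripts. YsEndo cells were sorted for EPCAM and mCherry, while Epi and exEndo 2 were dissected from individual embryos. The part of these steps in the differences was not tested. Against the yolk sac lineage 3952 genes were called with the higher change in exGut and 1275 with the lower one (36.5%, with 27.6% higher and 8.89% lower). Of these calls 75.6% were on the higher side in TPM, 52.96% after median-ratio rescaling and 50.7% after quantile normalization. Against the embryonic lineage 1385 were called higher and 2296 lower (25.7%, with 9.66% higher and 16.0% lower). Of these calls 37.6% were on the higher side in TPM, 46.8% after median-ratio rescaling and 49.6% after quantile normalization.

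The serum protein genes had a median change of -2.09 from exEndo 1 to exGut and 2.60 from exEndo 2 to YsEndo. The exGut change of each gene is the mean of regions that differed, with medians of 0.61 in exMidgut and -4.72 in exHindgut, and Afp was higher in exMidgut than in exEndo 1. By the test of the difference, which uses that mean, 16 of the 18 had a lower change in exGut (8.89% of all genes). Afp was at 30.2 to 192 TPM in exEndo 2 and 23871 to 27039.6 TPM in YsEndo, a difference of changes of -8.95. Apoc2 was at 1804 to 6336 TPM and 5390.2 to 7266 TPM there, a difference of -11.19. Spp2, a secreted phosphoprotein gene, was at 13.6 to 48 TPM in exEndo 2 and 2830.4 to 3187 TPM in YsEndo, against 104 to 284 TPM in exEndo 1 and 0 to 416 TPM in exGut, a difference of -10.26. The endocytic genes Cubn and Amn were at 638 to 711 and 708 to 1551 TPM in YsEndo, with differences of -6.77 and -6.20. The genes with the largest difference in the other direction were Robo2, Gpx2 and Ifitm1. Robo2, a receptor for Slit ligands, was at 0.0348 to 0.431 TPM in exEndo 1 and 32.8 to 157 TPM in exGut, and at 1.92 to 12.3 TPM in exEndo 2 and 0 to 0.107 TPM in YsEndo (8.17). Gpx2, an epithelial glutathione peroxidase, and Ifitm1, an interferon-induced membrane protein, differed by 7.85 and 7.47. Of 38 Hox genes, 36 had a higher change in exGut (27.6% of all genes), and the median change from exEndo 2 to YsEndo was -0.03. Of the 39 listed, 0 lay above 1 TPM in every exEndo 1 library and 36 in every exHindgut library. These genes passed the filter largely through E9.5 gut libraries, so this count is no separate support either.

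Against the embryonic lineage 14 of the 18 serum protein genes and 15 of the 16 uptake genes had a lower change in exGut (16.0% of all genes). A change takes in the level at E6.5, so a lower change does not mean a lower level at E9.5. Apoa1 was at 0.112 to 1.47 TPM in Epi, 29.7 to 259.5 TPM in emMidgut and 0.302 to 4.94 TPM in emHindgut, a difference of changes of -9.72. Spink1, a trypsin inhibitor gene, was at 11233 to 14782 TPM in exEndo 1, 879.8 to 1746 TPM in exMidgut and 11.5 to 101 TPM in exHindgut, and at 0 to 0.138 TPM in Epi, 399 to 545 TPM in emMidgut and 1.35 to 13.52 TPM in emHindgut (-11.50). The order of the regions was the same in both origins: Afp was at 662 to 978 TPM in emMidgut and 2.13 to 18.9 TPM in emHindgut, and Rbp4 at 586 to 1671 and 22.6 to 45.9 TPM. At E9.5 Afp, Apoa1 and Spink1 were higher in exMidgut than in emMidgut, and the ranges of Rbp4 overlapped. In the hindgut Afp was higher in exHindgut than in emHindgut, and the ranges of Apoa1, Spink1 and Rbp4 overlapped. On the other side, Pou5f1, the pluripotency factor, was at 1067 to 1852 TPM in Epi and fell in the embryonic lineage, with a difference of 5.30. emMidgut replicates 1 and 3 held 93.6 and 131 TPM where the other two were listed at 0. Without these libraries, an alternative added after the values were seen, the difference was 6.999. With a pseudocount of 0.1 it was 4.31 and its call was lost (limma, adjusted p = 0.0884). Fst and Slc7a3, which were high in Epi at 30.4 to 156 and 229 to 309.6 TPM, differed by 6.02 and 5.68. Hox genes had a median change of 3.31 in the extraembryonic and 3.39 in the embryonic lineage, and 10 of 38 were called with a lower change in exGut and none with a higher one by limma.

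**Figure D5:**
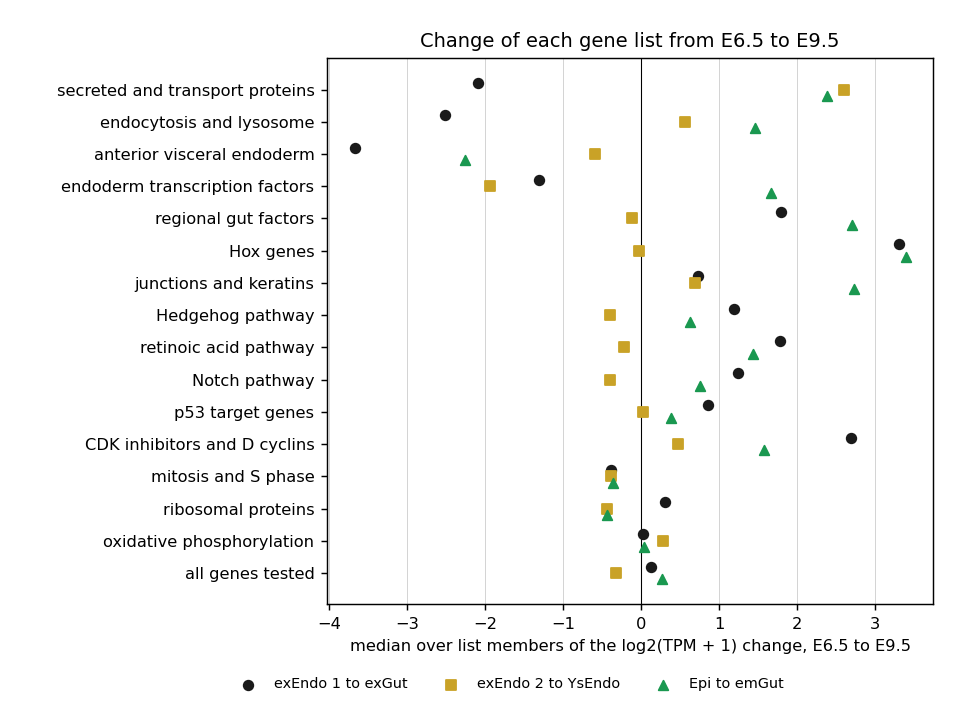
Median over the members of each gene list (rows) of the log2(TPM + 1) change from E6.5 to E9.5 (x axis), for exEndo 1 to exGut (black circles), exEndo 2 to YsEndo (yellow squares) and Epi to emGut (green triangles), from the fit of 32 libraries. Serum proteins stand at -2.09 in exGut and at 2.60 and 2.39 in the other lineages, and Hox genes at 3.31 and 3.39 in the gut lineages and -0.03 in yolk sac endoderm.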

How the data were processed

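RNA of 44 libraries was measured, of which 12 were analysed here as 4 exEndo 1, 4 exMidgut and 4 exHindgut libraries, with 20 libraries of exEndo 2, YsEndo, Epi, emMidgut and emHindgut for the differences of changes. Per the study's methods, the authors removed adapters (cutadapt 4.1), mapped the reads to mm10 plus both reporter sequences (STAR 2.7.9a) and quantified genes with StringTie 2.0.6. The values they deposited per gene are TPM, FPKM and coverage. Read counts were not used. Whether the counting used strand is not given in the sources used here. Coverage was used only for the aligned bases per library, and FPKM only there and in an alternative.

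TPM was summed per gene ID, and protein-coding genes above 1 TPM in at least 4 libraries, Y-linked genes excepted, were kept. log2(TPM + 1) was fitted with limma 3.58.1 (trend) in R 4.3.3, with 3 group means for 12 libraries and 8 for 32, and p-values were adjusted by Benjamini-Hochberg over all genes tested. Nothing in the labels ties samples of 1 group to separate litters, so p-values measure the spread between these samples. Per the study's methods, E6.5 tissues came from individual embryos. Same-numbered exEndo 1 and exEndo 2 libraries deviated from their group means together (correlations of 0.132 to 0.362), so their numbers were taken as pairs, and a block over these groups was added after the data were seen. Tables and figures were made with Python 3.11.15, pandas 2.3.3, NumPy 2.4.6 and matplotlib 3.10.9, and block fits with statmod 1.5.0. Alternatives were FPKM, a pseudocount of 0.1, no filter, all gene types, no trend, median-ratio and quantile rescaling, 2 group means, a replicate block, and leaving out each library.

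The libraries and gene lists were chosen with earlier results of these data known. Genes were named by rule: the called members of each list with the largest rise and fall, its member with the highest mean TPM and members needed to describe the list, the 5 largest rises and falls with separated groups, the 3 largest differences each way in the other comparisons, and the reporters, Epcam, Trp53, Rhox5, Trap1a, Tex19.1, Mmp2 and Mfap2. A few genes that this rule names are not reported here. Promoters were RefSeq sequence of GRCm38.p6.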

Additional observations from a re-analysis of the deposited data

Results flagged for a closer look

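Over 495 groups of 4 libraries, 25 had a library whose gap to the nearest other, divided by the range of the group on log2(TPM + 1), was above the 95% critical value of Dixon's test for 4 values. Chance gives about 1 in 20. Most were low values in a group otherwise at or near 0. In exMidgut these were EGFP (gap ratio 0.969, 2.30 TPM in replicate 1), Cer1 (1.000, 1.20 TPM in replicate 2), Lhx1 (0.977, 1.83 TPM in replicate 3), Pou5f1 (1.000, 1.66 TPM in replicate 4), Fgf5 (1.000, 3.65 TPM in replicate 4) and Pga5 (1.000, 2.05 TPM in replicate 2). In exHindgut they were EGFP (0.991, 2.38 TPM in replicate 2), Apoa4 (1.000, 1.72 TPM in replicate 4), Foxh1 (1.000, 3.83 TPM in replicate 2), Pou5f1 (0.914, 1.37 TPM in replicate 2), Utf1 (1.000, 2.71 TPM in replicate 3), Gata5 (0.943, 2.15 TPM in replicate 3) and Spp2 (1.000, 4.08 TPM in replicate 3).

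Among expressed genes, exEndo 1 replicate 1 was high for Tex19.1 (0.860, 81.8 TPM against at most 24.1) and low for Cldn6 (0.866, 424 TPM against at least 723) and Cldn7 (0.919, 182 TPM against at least 259). exEndo 1 replicate 2 was high for Mmp2 (0.830, 1.04 TPM), and replicate 3 was low for Krt18 (0.830, 508 TPM) and Fgf8 (0.839, 11.5 TPM against at least 71.0). In exMidgut, replicate 2 was low for Cldn3 (0.832, 92.1 TPM against at least 216) and Postn (0.892, 4.70 TPM), replicate 3 was low for Hoxd4 (0.874, 32.3 TPM) and high for Cldn7 (0.832, 531 TPM), and replicate 4 was high for Dnmt3a (0.898, 154 TPM). In exHindgut, replicate 1 was low for Dab2 (0.909, 2.65 TPM against at least 10.3).

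The change from exEndo 1 to exGut differed from the change from exEndo 2 to YsEndo in 5227 genes by limma's test of the difference, with log2 differences of changes of 8.17 for Robo2, 7.85 for Gpx2, 7.47 for Ifitm1, -11.19 for Apoc2, -10.26 for Spp2 and -8.95 for Afp. It differed from the change from Epi to emGut in 3681 genes, with 6.02 for Fst, 5.68 for Slc7a3, 5.30 for Pou5f1, -11.50 for Spink1, -10.68 for Apoc2 and -9.72 for Apoa1.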

How the results depend on the processing

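The counts of called genes of all 6 comparisons stayed within 1.5 times their value under the alternatives run. The count for exGut against exEndo 1, 4266, was 3924 with 2 group means, 3690 in FPKM, 4515 with a pseudocount of 0.1 and 3490 with exEndo 1 replicates 1 and 3 alone, and 3928 to 4290 when each library was left out in turn. Leaving out 1 library gave 1488 to 1814 for exHindgut against exMidgut, 4881 to 5309 for the difference from the yolk sac lineage and 3451 to 3739 for that from the embryonic lineage. Same-numbered exEndo 1, exMidgut and exHindgut samples deviated together little or not at all (correlations of -0.037 to 0.061). Between exMidgut and exHindgut these were -0.010, 0.058, 0.032 and 0.061 for replicates 1 to 4. Values this small cannot settle whether same-numbered exMidgut and exHindgut samples came from the same embryos. A replicate block gave 4264 calls for the main comparison and 1720 for exHindgut against exMidgut. For the paired exEndo 1 and exEndo 2 samples, a replicate block gave 5373 calls for the difference from the yolk sac lineage, with all 5227 calls kept, and 3682 for that from the embryonic lineage, where 3677 of 3681 were kept. Of 246 alternative counts of called list members, 16 moved by more than 1.5 times, 14 of them under rescaling. Of 4701 alternative values for 205 gene results, 4616 stayed on their side of the threshold in the same direction, 71 lost a call, 14 gained one and none was reversed by limma. TPM holds no read counts, so the counting error of genes with low TPM is not known here.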

Other observations

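Of 21 cholesterol synthesis and uptake genes 10 rose and 1 fell, against 20.8% and 12.2% of all genes. Sqle, squalene epoxidase, was at 7.26 to 10.3 TPM in exEndo 1 and 23.1 to 67.1 TPM in exGut (log2 difference of 2.01). Of 20 glycolysis genes 9 rose and 1 fell, led by the lactate dehydrogenase subunit gene Ldhb, at 41 to 104 TPM in exEndo 1 and 369 to 663 TPM in exGut (3.11). Of 8 tested MHC class I and antigen processing genes, 5 rose and 1 fell. H2-K1 was at 5.78 to 6.70 TPM in exEndo 1 and 43.5 to 104 TPM in exGut (3.24), a value to be read with care since H2 genes are near-identical copies, and B2m, the light chain, at 21 to 73.7 TPM in exEndo 1 and 96.5 to 421 TPM in exGut (2.25).

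Of 19 Wnt genes 5 rose and 7 fell, against 20.8% and 12.2% of all genes. In exHindgut 10 were higher and 3 lower than in exMidgut, against 5.34% and 7.97% of all genes. Lef1, a nuclear effector, was at 1.38 to 4.29 TPM in exEndo 1, 33.4 to 114 TPM in exMidgut and 125 to 218 TPM in exHindgut (4.94), and Nkd1, a feedback inhibitor, was at 0.140 to 4.05 TPM in exMidgut and 40.0 to 54.8 TPM in exHindgut. Sfrp1, a secreted Wnt antagonist, fell (-4.11). Of 12 Notch genes 7 rose and none fell by limma, with Hes1 at 27.6 to 34 TPM in exEndo 1, 120.2 to 188 TPM in exMidgut and 261 to 371 TPM in exHindgut (2.78). Of 16 BMP genes 4 rose and 2 fell, shares near those of all genes: Bmp2 fell (-2.38) and Bmp4 rose (4.17). Of 26 axon guidance genes 12 rose and 3 fell, led by Robo2 and the ephrin gene Efna1 (5.48). Of 16 Notch and 28 axon guidance genes listed, 7 and 14 lay above 1 TPM in every exEndo 1 library. The other genes tested passed the filter only with exGut libraries, so these counts of rises are no separate support.

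The remaining lists moved in both directions, beside 20.8% of all genes called higher and 12.2% called lower. Among 16 basement membrane genes 4 rose and 4 fell: Hspg2, perlecan, rose (2.87) and Col4a1 fell (-1.72). The share of these genes that rose was near that of all genes. Among 12 DNA methylation genes 1 fell and 1 rose. Dnmt3b was at 220.4 to 355 TPM in exEndo 1 and 13.51 to 51.8 TPM in exGut (-3.45) and Dnmt3a was at 19.8 to 41.9 TPM in exEndo 1 and 102 to 154 TPM in exGut (2.19). Of 19 imprinted genes 11 rose and 3 fell, led by Ndn (5.26) and Rtl1 (-3.16). Of 11 enterocyte genes 4 rose and 4 fell, with Dpp4, an apical peptidase, at 151 to 235 TPM in exEndo 1, 36.9 to 71.5 TPM in exMidgut and 2.01 to 11.4 TPM in exHindgut (-3.57).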
